A study of Homo sapiens with 6 samples.

Results

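Interferon response genes were examined across a pair of human leukemia cell lines, HEL and SET2, each carrying 1 of 3 lentiviral constructs. The set held 39 genes, given as a list and taken from the 22320 genes that the array annotation gave by a single symbol, and all 39 were measured. The value of a gene on an array was the mean log2 intensity of its probe sets, and each member rested on 3 to 28 of them, 532 in all. A difference of 1 on this scale is a doubling, and brightness of different genes cannot be set against each other because probes differ.

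Both lines are described by their labels as acute myeloid leukemia cell lines, and in both the kinase JAK2 is known to be mutated to an active form. The HEL and SET2 cultures were labelled as carrying an shRNA against IGF1R (insulin-like growth factor receptor), a sponge transcript meant to bind miR-125a, or the pLKO backbone as control. Every culture, control included, was transduced with lentiviral particles and kept in puromycin for 96 h. There was 1 array for each line and construct, 6 arrays in all, and no interferon was listed as a treatment. The p-values therefore measure only the spread between these arrays, without repeats. With line and construct both in the fit, that spread comes from how far the lines disagree in their changes between constructs.

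Type I interferons bind the receptor chains IFNAR1 and IFNAR2, whose kinases JAK1 and TYK2 phosphorylate STAT proteins, STAT2 among them. STAT2 and IRF9 belong to a complex that enters the nucleus and binds the interferon-stimulated response element, a pair of GAAA repeats, in front of its target genes. The products include proteins that bind viral RNA, block viral translation or budding, sense foreign nucleic acid, and conjugate the ubiquitin-like protein ISG15 to other proteins.

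The response element was looked for as GAAANNGAAA on either strand in RefSeq promoter windows of the GRCh38.p14 assembly, from 250 bases before to 50 bases after a gene's start. Windows were found for 32 of the 39 members, and 22 of these (68.8%) held the motif, against 4.38% of the 27305 gene symbols with a window. The other common interferon motif, TTCNNNGAA, which reads the same on both strands, was in 10 of the 32 members (31.2%) and in 9.38% of all symbols. It overlapped a GAAANNGAAA match in 5 members, and GAAANNGAAA matches overlapped each other in 4. A match describes letters only and is not a site shown to be bound. The 160 bases before the start are printed for 8 members, taken only from members with a match there, so every printed stretch holds the motif. IFI27, BST2, IFIT3 and EPSTI1 are members far lower in HEL, and HERC5 is a member higher in HEL. IFI44L, IFI6 and PARP9 are members highest in HEL on the array labelled IGF1R shRNA. SAMD9L and XAF1, also far lower in HEL, and OAS1, also highest on that HEL array, had no match in their windows. PARP9 also has a window without a match. Capitals mark matches to GAAANNGAAA, which appear as TTTCNNTTTC when the motif lies on the other strand.
IFI27 (chr14:94110576-94110735, plus strand): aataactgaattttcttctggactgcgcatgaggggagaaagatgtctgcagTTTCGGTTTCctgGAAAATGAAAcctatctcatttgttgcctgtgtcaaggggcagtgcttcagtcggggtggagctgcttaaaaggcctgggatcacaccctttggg
BST2 (chr19:17405631-17405790, minus strand): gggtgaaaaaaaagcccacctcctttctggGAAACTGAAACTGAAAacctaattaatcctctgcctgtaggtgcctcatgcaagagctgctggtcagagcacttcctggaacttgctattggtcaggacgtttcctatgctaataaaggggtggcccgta
IFIT3 (chr10:89327837-89327996, plus strand): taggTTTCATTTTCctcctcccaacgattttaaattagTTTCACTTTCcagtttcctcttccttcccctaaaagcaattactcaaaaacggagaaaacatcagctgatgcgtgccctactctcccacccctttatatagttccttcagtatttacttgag
EPSTI1 (chr13:42992242-42992401, minus strand): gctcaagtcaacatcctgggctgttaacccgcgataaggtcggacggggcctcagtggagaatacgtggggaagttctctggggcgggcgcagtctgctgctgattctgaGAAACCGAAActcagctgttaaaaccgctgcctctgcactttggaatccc
HERC5 (chr4:88456959-88457118, plus strand): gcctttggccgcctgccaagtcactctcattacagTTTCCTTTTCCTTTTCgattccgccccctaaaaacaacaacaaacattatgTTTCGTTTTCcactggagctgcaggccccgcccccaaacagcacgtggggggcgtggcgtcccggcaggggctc
IFI44L (chr1:78620288-78620447, plus strand): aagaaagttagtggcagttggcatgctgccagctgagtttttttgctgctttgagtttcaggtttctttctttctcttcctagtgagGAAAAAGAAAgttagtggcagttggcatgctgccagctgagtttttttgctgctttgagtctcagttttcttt
IFI6 (chr1:27672193-27672352, minus strand): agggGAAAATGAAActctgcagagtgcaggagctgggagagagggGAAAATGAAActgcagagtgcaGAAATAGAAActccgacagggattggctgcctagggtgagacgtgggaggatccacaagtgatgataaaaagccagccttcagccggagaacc
PARP9 (chr3:122564301-122564460, minus strand): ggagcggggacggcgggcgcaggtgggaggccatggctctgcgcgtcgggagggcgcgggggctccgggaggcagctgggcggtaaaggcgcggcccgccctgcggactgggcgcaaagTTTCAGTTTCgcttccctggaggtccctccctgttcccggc

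The arrays labelled IGF1R shRNA did not show a lower level of the targeted gene. IGF1R was at 8.56 on the HEL array labelled IGF1R shRNA, 8.81 on the HEL sponge array and 8.63 on the HEL control array. In SET2 it was at 8.33, 8.37 and 8.32 on the same 3 kinds of array. The shRNA-labelled arrays differed from the controls by -0.032 (SE 0.15, 95% confidence interval -0.38 to 0.31, adjusted p = 0.973), and these arrays are referred to here by what their labels say. Gene medians of the 6 arrays ran from 5.50 to 5.54. Over genes, each treated array correlated with its line's control at 0.976 (HEL, labelled shRNA), 0.991 (HEL, sponge), 0.987 (SET2, labelled shRNA) and 0.993 (SET2, sponge).

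More interferon response genes were lower than higher in HEL relative to SET2. Of the 39 members, 20 (51.3%) were lower in HEL at an adjusted p under 0.05 and 3 (7.69%) were higher, against 13% and 11.6% of all genes. The lower group was led by IFI27, BST2, IFI44L, SAMD9L, IFIT3 and EPSTI1, each between 6.14-fold and 17.3-fold dimmer in HEL, and the higher group was MX2, HERC5 and IFI16. All 3 HEL values lay below all 3 SET2 values for 24 members (61.5%, against 20% of all genes) and above them for 5 (12.8%, against 19.2%), while 10 members overlapped. The median member differed by -0.59 between HEL and SET2, beside 0.0076 over all genes.

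Those calls came from limma's moderated test across all 22320 genes, with line and treatment as terms and Benjamini-Hochberg adjustment, which called 5475 genes in all. The HEL mean was under the median level of all genes, 5.55, for 12 members, and the SET2 mean for 7. In RNA from whole cultures, fewer expressing cells and less RNA per cell cannot be told apart. Each line is 1 line, so the comparison is of these cultures.

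**Figure D1:**
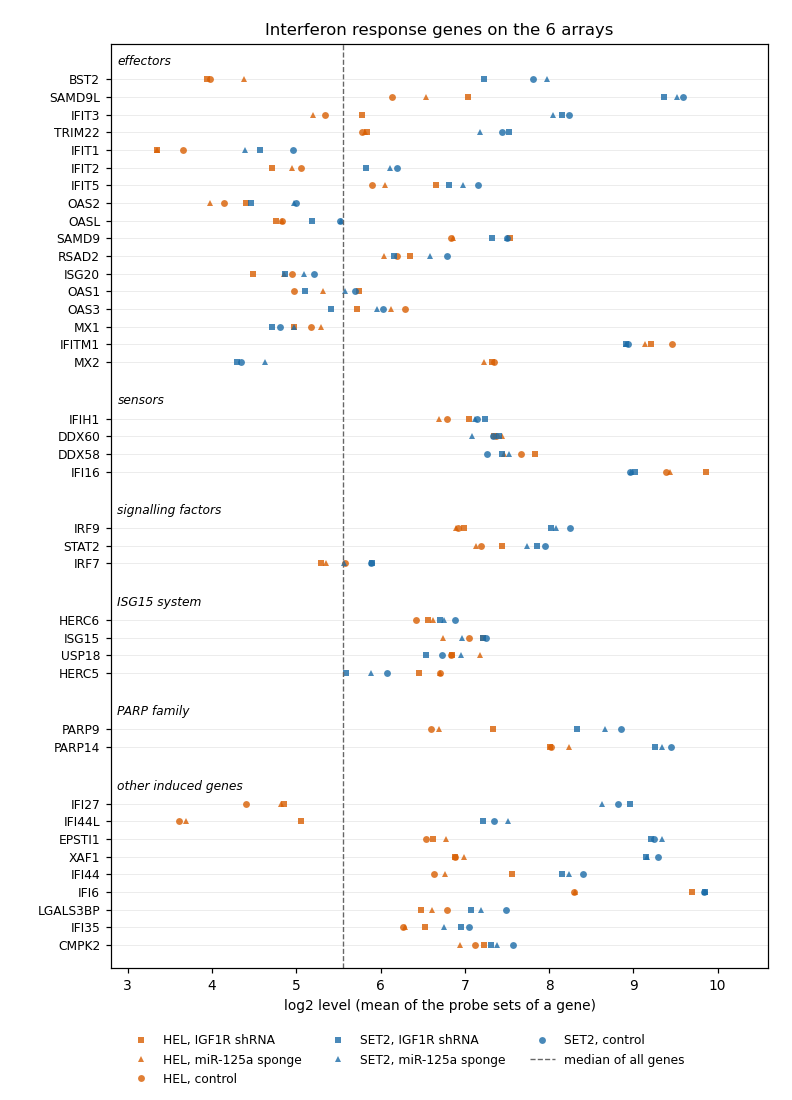
Level of each interferon response gene (log2, mean of its probe sets, horizontal axis) on each of the 6 arrays, by role; orange is HEL, blue is SET2, symbols mark the construct on the label, and the dashed line is the median of all genes, 5.55. Orange lies left of blue on all arrays for 24 genes, with MX2 far to the other side.

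Some lineage markers also differed between the lines, and others did not pass. Of the erythroid and megakaryocyte list 1 of 7 genes was called higher in HEL and 2 lower, against 11.6% and 13% of all genes. The other 4 were GATA1 (0.21), TAL1 (0.17), NFE2 (-0.29) and ITGA2B (0.34). Of the myeloid progenitor list 1 of 5 was called higher and 1 lower. Its MPO (-0.18), CD33 (0.004) and KIT (-0.58) did not pass. Of 7 erythroid and megakaryocyte markers, GP9 was higher in HEL at 3.21 (SE 0.16), KLF1 was lower at -0.98 (SE 0.14) and EPOR lower at -0.68 (SE 0.12), with a list mean of 8.65 to 8.99 in HEL and 8.50 to 8.60 in SET2. Of 5 myeloid progenitor markers, CD34 was lower in HEL at -4.19 (SE 0.13), a gap about as large as that of IFI27, at -4.12 (SE 0.15). SPI1 was higher at 0.87 (SE 0.13), and the list mean was 6.79 to 7.29 in HEL and 7.77 to 8.03 in SET2. MPO, a granulocyte lineage enzyme of that list, was between 4.14 and 4.71 on all arrays, and CD33, a myeloid surface protein, between 8.06 and 8.95. The part of these markers in the interferon values was not tested.

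Markers of cell types foreign to the lines were read on the same arrays. Of the B cell and fibroblast lists 0 of 4 and 0 of 5 genes were called, against 13% of all genes lower in HEL and 11.6% higher. A call compares the lines and does not show whether a gene is absent. In each line the mean was under the median of all genes, 5.55, for 2 of the B cell and 4 of the fibroblast genes. CD79A, of the B cell list, ran from 6.1 to 7.1. The list for plasmacytoid dendritic cells, the strongest interferon producers of blood, had a mean level of 5.01 to 5.06 in HEL and 5.53 to 5.70 in SET2, with 1 of 5 genes (IL3RA) called lower in HEL. Its defining genes CLEC4C and LILRA4 were dim on all 6 arrays, between 3.37 and 3.82. Brighter genes of that list were TCF4, from 7.2 to 7.6, and SPIB, from 5.7 to 6.0. IL3RA ran from 4.6 to 4.8 in HEL and from 6.9 to 7.5 in SET2. The T and NK cell list ran from 4.95 to 5.12 in HEL and from 4.57 to 4.70 in SET2, with 2 of 6 genes (CD2 and NCAM1) called higher in HEL. CD3D, CD3E and CD3G were between 3.78 and 4.70 on every array. CD2 ran from 6.6 to 7.3 in HEL and from 4.6 to 4.9 in SET2, and CD8A from 5.7 to 6.0 over all arrays. The part of these genes in the interferon values was not tested.

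Among the 17 antiviral effectors, 8 were lower in HEL, 1 was higher and 8 did not pass the test, against 13% of all genes lower and 11.6% higher. BST2, which tethers budding virus to the cell surface, was at 3.94 on the HEL array labelled IGF1R shRNA, 4.37 with the sponge and 3.98 in the control, against 7.23, 7.98 and 7.81 in SET2. Its HEL values did not come near its SET2 values, and the difference was -3.57 (SE 0.14, adjusted p = 1.75e-05), 11.9-fold. SAMD9L, an antiviral restriction factor, was at 7.04, 6.54 and 6.14 in HEL and at 9.36, 9.52 and 9.59 in SET2 in the same order of arrays. All 11 of its probe sets separated the lines, and the difference was -2.92 (SE 0.21, adjusted p = 0.000189). TRIM22, an E3 ubiquitin ligase, was at 5.84, 5.82 and 5.78 in HEL and at 7.52, 7.18 and 7.44 in SET2. Its HEL arrays had an SD of 0.027, and the difference was -1.57 (SE 0.13, adjusted p = 0.0003).

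The IFIT genes, whose proteins bind viral RNA and hinder its translation, were all lower in HEL. IFIT3 was at 5.78 (labelled shRNA), 5.20 (sponge) and 5.34 (control) in HEL, against 8.16, 8.05 and 8.24 in SET2. None of its 6 probe sets overlapped between the lines, and the difference was -2.71 (SE 0.14, adjusted p = 5.51e-05). IFIT1 was at 3.35, 3.34 and 3.66 in HEL and at 4.57, 4.40 and 4.97 in SET2, dim in both lines, with a difference of -1.19 (SE 0.12, adjusted p = 0.000758). IFIT2 was at 4.72, 4.95 and 5.06 in HEL and at 5.83, 6.12 and 6.20 in SET2, a difference of -1.14 (SE 0.11, adjusted p = 0.000723). IFIT5 had its highest HEL value, 6.66, on the shRNA-labelled array, beside 6.05 (sponge) and 5.90 (control). With 6.81, 6.98 and 7.16 in SET2, its difference was -0.78 (SE 0.21, adjusted p = 0.0382). Taking the median of a gene's probe sets in place of their mean left IFIT1 at -1.01 (adjusted p = 0.0514) and IFIT2 at -0.45 (adjusted p = 0.208).

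MX2, a dynamin-like GTPase that restricts retroviruses, was the 1 effector called higher in HEL. It was at 7.32 (labelled shRNA), 7.23 (sponge) and 7.35 (control) in HEL, against 4.30, 4.62 and 4.34 in SET2. Every HEL value was above every SET2 value, by a difference of 2.87 (SE 0.14, adjusted p = 3.31e-05), 7.33-fold. The size depended on the probe sets taken, being 4.0 with their median and 0.84 (adjusted p = 0.0308) with the brightest. Of its 21 probe sets, 14 had all HEL arrays above SET2, none had them below and 7 overlapped. MX1, its neighbour on chromosome 21 and a GTPase that restricts influenza virus, was at 4.97, 5.30 and 5.18 in HEL and at 4.71, 4.97 and 4.80 in SET2. The HEL values were just above the SET2 ones, and the difference of 0.32 (SE 0.12, adjusted p = 0.0928) did not pass. With the median of its probe sets MX1 stood at 0.88 (adjusted p = 0.0292).

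The OAS enzymes are activated by double-stranded RNA and make short chains of linked adenylates. OASL, a relative without this activity, was at 4.76, 4.83 and 4.83 in HEL and at 5.19, 5.53 and 5.51 in SET2, a difference of -0.60 (SE 0.12, adjusted p = 0.0133). OAS2 was at 4.40, 3.97 and 4.14 in HEL and at 4.46, 4.98 and 5.00 in SET2, separated on all arrays but with an adjusted p of 0.0558 for -0.64 (SE 0.20). OAS1 ran from 4.97 to 5.75 in HEL and from 5.10 to 5.69 in SET2, a difference of -0.11 (SE 0.25, adjusted p = 0.809). OAS3 ran from 5.72 to 6.29 in HEL and from 5.41 to 6.03 in SET2, a difference of 0.25 (SE 0.12, adjusted p = 0.187). Both of these overlapped between the lines. OAS2 turned to 0.16 (adjusted p = 0.532) when dim probe sets were left out and passed at -0.93 (adjusted p = 0.00194) without the shRNA-labelled array of either line, while OAS1 turned to 0.19 (adjusted p = 0.70) without the control array of either line.

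The remaining effectors did not pass. RSAD2 (viperin, which makes a nucleotide that ends viral RNA chains) ran from 6.04 to 6.35 in HEL and from 6.16 to 6.79 in SET2, a difference of -0.32 (SE 0.18, adjusted p = 0.273). ISG20, an exonuclease, ran from 4.48 to 4.95 in HEL and from 4.87 to 5.21 in SET2, a difference of -0.29 (SE 0.12, adjusted p = 0.129). SAMD9, the paralog next to SAMD9L, ran from 6.83 to 7.53 in HEL and from 7.32 to 7.50 in SET2, a difference of -0.36 (SE 0.19, adjusted p = 0.244). These 3 overlapped between the lines. ISG20 was called lower in HEL at -1.70 (adjusted p = 0.011) with its brightest probe set and at -0.60 (adjusted p = 0.0296) with dim probe sets left out. IFITM1, a membrane protein that blocks viral entry, was bright everywhere, from 9.14 to 9.45 in HEL and from 8.91 to 8.94 in SET2. Its HEL values were the higher ones, by 0.35 (SE 0.12, adjusted p = 0.0903).

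Of the 4 nucleic acid sensors, 1 was higher in HEL, against 11.6% of all genes, and 3 did not pass. IFI16, which binds DNA in the nucleus and cytosol, was at 9.86 (labelled shRNA), 9.44 (sponge) and 9.39 (control) in HEL, against 9.02, 8.97 and 8.96 in SET2. Every HEL value was above the SET2 ones, by 0.58 (SE 0.13, adjusted p = 0.0213). Of its 18 probe sets 11 overlapped, and the difference did not pass with their median (0.34, adjusted p = 0.251) or with the brightest (0.17, adjusted p = 0.619). DDX58, which encodes the RNA sensor RIG-I, ran from 7.46 to 7.83 in HEL and from 7.26 to 7.52 in SET2, a difference of 0.24 (SE 0.14, adjusted p = 0.282). IFIH1, which encodes the RNA sensor MDA5, ran from 6.70 to 7.05 in HEL and from 7.12 to 7.24 in SET2, a difference of -0.32 (SE 0.12, adjusted p = 0.106). DDX60, a helicase linked to RIG-I signalling, ran from 7.35 to 7.44 in HEL and from 7.09 to 7.41 in SET2, a difference of 0.11 (SE 0.13, adjusted p = 0.634). Of these, DDX58 and DDX60 overlapped between the lines and IFIH1 was lower on all HEL arrays. DDX60 stood at -0.012 without the sponge array of either line.

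Of the 3 signalling factors, IRF9 and STAT2 were lower in HEL, against 13% of all genes. IRF9, the DNA-binding part of the interferon-activated complex, was at 6.99 (labelled shRNA), 6.90 (sponge) and 6.92 (control) in HEL, against 8.03, 8.08 and 8.25 in SET2. Its HEL arrays lay close together and well below SET2, at a difference of -1.18 (SE 0.12, adjusted p = 0.000835). STAT2, its partner, was at 7.44, 7.14 and 7.19 in HEL and at 7.85, 7.74 and 7.95 in SET2, a difference of -0.59 (SE 0.13, adjusted p = 0.0157). With the median of its probe sets STAT2 had an adjusted p of 0.0521, and with the brightest 0.0729. IRF7, the factor that amplifies interferon alpha transcription, ran from 5.30 to 5.58 in HEL and from 5.57 to 5.90 in SET2. Its ranges just touched, and the difference of -0.38 (SE 0.13, adjusted p = 0.0832) did not pass. Symbols shared by several genes kept 9 further IRF9 probe sets and 3 IFI6 probe sets out of these averages.

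In the ISG15 conjugation system, 1 of 4 genes was higher in HEL, against 11.6% of all genes, and 3 did not pass. HERC5, the ligase that attaches ISG15 to new proteins, was at 6.45 (labelled shRNA), 6.70 (sponge) and 6.70 (control) in HEL, against 5.59, 5.88 and 6.08 in SET2. The difference was 0.77 (SE 0.12, adjusted p = 0.0047), and 14 of 22 probe sets had all HEL arrays above SET2. With the median of its probe sets the adjusted p was 0.075, and with the brightest probe set 0.0625. HERC6, its neighbour on chromosome 4, ran from 6.42 to 6.63 in HEL and from 6.70 to 6.89 in SET2, a difference of -0.24 (SE 0.13, adjusted p = 0.242). ISG15 itself ran from 6.74 to 7.21 in HEL and from 6.97 to 7.26 in SET2, a difference of -0.15 (SE 0.12, adjusted p = 0.457). USP18, the protease that removes ISG15 and dampens the interferon receptor, ran from 6.84 to 7.18 in HEL and from 6.54 to 6.96 in SET2, a difference of 0.21 (SE 0.12, adjusted p = 0.267). ISG15 and USP18 each rested on 3 probe sets and overlapped between the lines.

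Both PARP genes were lower in HEL, against 13% of all genes. PARP9, which works in a complex with the ligase DTX3L, was at 7.33 (labelled shRNA), 6.69 (sponge) and 6.60 (control) in HEL, against 8.33, 8.67 and 8.85 in SET2. The shRNA-labelled arrays were the highest HEL value and the lowest SET2 value, and the difference was -1.74 (SE 0.24, adjusted p = 0.00255). PARP14, a mono-ADP-ribosyltransferase, was at 8.01, 8.23 and 8.02 in HEL and at 9.26, 9.33 and 9.44 in SET2. Of its 18 probe sets, 17 had all HEL arrays below SET2, and the difference was -1.26 (SE 0.12, adjusted p = 0.000676).

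The 9 other induced genes held the largest gap, and 8 of them were lower in HEL, against 13% of all genes. IFI27, a mitochondrial protein widely used as a marker of interferon exposure, was at 4.85 (labelled shRNA), 4.81 (sponge) and 4.40 (control) in HEL, against 8.96, 8.63 and 8.82 in SET2. The difference was -4.12 (SE 0.15, adjusted p = 1.35e-05), 17.3-fold, and 11 of 14 probe sets separated the lines. IFI44L, a feedback regulator of the response, was at 5.06, 3.69 and 3.61 in HEL and at 7.22, 7.51 and 7.35 in SET2, a difference of -3.24 (SE 0.32, adjusted p = 0.000634). Its shRNA-labelled HEL array stood apart from the other HEL arrays but remained below every SET2 array. IFI44, the next gene on chromosome 1, was at 7.55, 6.76 and 6.63 in HEL and at 8.15, 8.24 and 8.40 in SET2, a difference of -1.28 (SE 0.22, adjusted p = 0.00699). With the brightest probe set alone IFI44 stood at -0.87 (adjusted p = 0.0979).

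EPSTI1, a gene first described in epithelial and stromal cell contact, was at 6.62 (labelled shRNA), 6.77 (sponge) and 6.54 (control) in HEL, against 9.21, 9.34 and 9.25 in SET2. All 18 of its probe sets were lower on every HEL array, and the difference was -2.62 (SE 0.12, adjusted p = 2.83e-05). XAF1, a pro-apoptotic partner of XIAP, was at 6.89, 6.99 and 6.88 in HEL and at 9.15, 9.16 and 9.29 in SET2, a difference of -2.28 (SE 0.12, adjusted p = 5.27e-05). In both genes the 3 arrays of a line lay close together. IFI6, a mitochondrial and endoplasmic reticulum protein that protects cells from virus, was at 9.69, 8.31 and 8.30 in HEL and at 9.85, 9.85 and 9.84 in SET2. Its SET2 arrays hardly differed, its shRNA-labelled HEL array came close to them, and the difference was -1.08 (SE 0.27, adjusted p = 0.0301).

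The smallest called differences of this group were those of LGALS3BP and IFI35. LGALS3BP, a secreted glycoprotein, was at 6.48, 6.61 and 6.79 in HEL and at 7.07, 7.19 and 7.49 in SET2, a difference of -0.63 (SE 0.12, adjusted p = 0.009). Its brightest probe set alone was 0.20 higher in HEL (adjusted p = 0.61). IFI35, an NMI-binding leucine zipper protein, was at 6.53, 6.29 and 6.27 in HEL and at 6.95, 6.76 and 7.05 in SET2, a difference of -0.56 (SE 0.13, adjusted p = 0.0218). CMPK2, a mitochondrial nucleotide kinase next to RSAD2 on chromosome 2, ran from 6.94 to 7.23 in HEL and from 7.31 to 7.57 in SET2. It was lower on every HEL array, but the difference of -0.33 (SE 0.13, adjusted p = 0.131) did not pass.

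**Figure D2:**
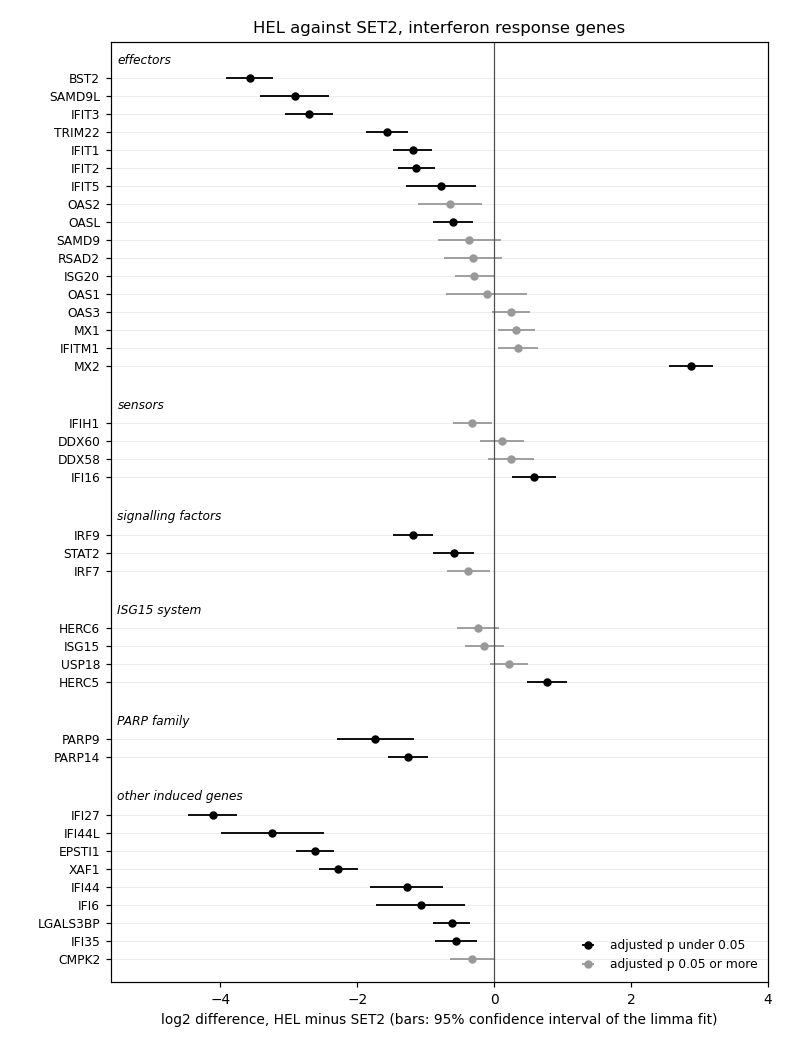
Log2 difference of each interferon response gene between HEL and SET2 (horizontal axis, HEL minus SET2), by role; points are limma estimates, bars their 95% confidence intervals, black marks an adjusted p under 0.05. Of the 23 black points, 20 lie left of 0 and MX2, HERC5 and IFI16 lie right of it.

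Of the 23 calls, 12 held when each array was left out in turn and under each other way of averaging, namely IFI27, BST2, IFI44L, SAMD9L, IFIT3, EPSTI1, XAF1, PARP9, TRIM22, PARP14, IRF9 and MX2. Besides MX2, the value of BST2 moved to -5.82 and that of IFI44L to -5.05 with the brightest probe set. A further 7 calls were lost when an array was left out. Of these, IFIT5, IFI16, STAT2, IFI6, IFI35 and LGALS3BP were also lost with the median and with the brightest probe set. OASL was also lost with the brightest probe set and without dim probe sets. In this fit, leaving out the control array of HEL or that of SET2 gives the same line difference, and likewise for each other construct. Without a control array the differences were -0.54 for IFIT5 (adjusted p = 0.186), -0.56 for OASL (0.0864), 0.65 for IFI16 (0.0627), -0.51 for STAT2 (0.107), -0.85 for IFI6 (0.142), -0.44 for IFI35 (0.143) and -0.59 for LGALS3BP (0.0666), with adjusted p in brackets. Without a sponge array they were -0.71 (IFIT5, 0.164), -0.56 (OASL, 0.112), 0.63 (IFI16, 0.088), -0.59 (STAT2, 0.103), -0.85 (IFI6, 0.143), -0.60 (IFI35, 0.0961) and -0.65 (LGALS3BP, 0.0656). Without an shRNA-labelled array, 4 members that had not passed did so: OAS2, RSAD2 at -0.57 (adjusted p = 0.0137), SAMD9 at -0.65 (adjusted p = 0.0079) and CMPK2 at -0.45 (adjusted p = 0.0332).

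Several members lie next to each other in RefSeq's order of protein-coding genes. SAMD9L and SAMD9 on chromosome 7 differed between HEL and SET2 by -2.92 and -0.36, IFI44L and IFI44 on chromosome 1 by -3.24 and -1.28, and MX2 and MX1 on chromosome 21 by 2.87 and 0.32. On chromosome 10, IFIT2 and IFIT3 differed by -1.14 and -2.71, and IFIT1 and IFIT5 by -1.19 and -0.78. CMPK2 and RSAD2 on chromosome 2 differed by -0.33 and -0.32. Other neighbours had opposite signs, HERC6 and HERC5 on chromosome 4 being at -0.24 and 0.77. OAS1, OAS3 and OAS2, in a row on chromosome 12, were at -0.11, 0.25 and -0.64. The differences within these pairs were not tested. Cross-hybridisation between related members was not tested either, since probe sequences were not used here.

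Members with and without the response element motif could be set side by side. Among the 22 with a GAAANNGAAA match, 12 were lower in HEL, 1 was higher and the median difference was -0.70. Among the 10 without one, 5 were lower, 1 was higher and the median was -0.44. Over all genes, 13% were called lower and 11.6% higher. HERC5, higher in HEL, has 3 matches in the printed stretch, and BST2, IFI27 and IFIT3, all far lower in HEL, have 2 each. EPSTI1, also far lower, has 1, and SAMD9L and XAF1, far lower as well, have none in their windows. Promoter windows of IFIT2, OAS2, OASL, MX2, IRF7, TRIM22 and USP18 were not used here.

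Genes of the pathway outside the 39 were described from lists that measured 102 of 114 entries. Of 42 further interferon-stimulated genes, 20 were lower in HEL and 3 higher, against 13% and 11.6% of all genes, with a median of -0.44 beside 0.0076 over all genes. GBP2 and GBP1, guanylate-binding proteins induced chiefly by interferon gamma, were lower by 3.90 (SE 0.12, adjusted p = 7.69e-06) and 3.66 (SE 0.22, adjusted p = 9.02e-05) on the log2 scale. GBP2 was at 4.05, 3.74 and 4.02 in HEL, against 7.93, 7.72 and 7.86 in SET2. In the same list CD274, which encodes the immune checkpoint ligand PD-L1, was higher in HEL by 1.17 (SE 0.16, adjusted p = 0.00273), and TDRD7, an autophagy inhibitor, by 0.65 (SE 0.17, adjusted p = 0.0317). TDRD7 did not pass with the brightest probe set (0.38, adjusted p = 0.258) or without a sponge array (0.70, adjusted p = 0.102), and stood at 0.43 without an shRNA-labelled array.

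None of the 20 interferon genes passed the test, against 13% of all genes called lower in HEL and 11.6% called higher. In each line 18 of them were below the median of all genes. Of the 5 receptor genes, IFNGR2, a chain of the interferon gamma receptor, was lower in HEL at -0.86 (SE 0.12, adjusted p = 0.00303). IL10RB, shared by the receptors of interferon lambda and interleukin 10, was lower at -0.53 (SE 0.14, adjusted p = 0.0357). IFNAR1 and IFNAR2 did not pass, at -0.28 (SE 0.19, adjusted p = 0.364) and 0.15 (SE 0.14, adjusted p = 0.528). Of the 3 receptor kinases, JAK1 was higher in HEL at 0.66 (SE 0.12, adjusted p = 0.00771). Without a sponge array JAK1 stood at 0.65 (adjusted p = 0.0656) and IL10RB at -0.56 (adjusted p = 0.143), and without a control array IL10RB stood at -0.38 (adjusted p = 0.209). With the median of its probe sets IFNGR2 had an adjusted p of 0.0558.

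Of the 6 other IRF genes, IRF1, a factor induced by interferon gamma, was lower in HEL at -1.77 (SE 0.12, adjusted p = 0.000141). IRF5, a factor of toll-like receptor signalling, was higher at 1.07 (SE 0.13, adjusted p = 0.00174). Of 16 genes of nucleic acid sensing, AIM2, a DNA sensor of inflammasomes, was higher in HEL at 1.48 (SE 0.17, adjusted p = 0.00131), and the adaptor MYD88 was lower at -0.46 (SE 0.12, adjusted p = 0.035), a call lost without a control array (-0.41, adjusted p = 0.185) or a sponge array (-0.43, adjusted p = 0.214). Of 10 negative regulators, SOCS3, an inhibitor of JAK kinases, was higher in HEL at 1.58 (SE 0.28, adjusted p = 0.00751). SAMHD1, a nucleotide hydrolase, and PTPN1, a phosphatase of JAK kinases, were lower at -1.70 (SE 0.13, adjusted p = 0.0002) and -1.65 (SE 0.13, adjusted p = 0.000316). Most genes of these lists did not pass, namely 4 of 6 IRF genes, 14 of 16 sensing genes and 7 of 10 regulators. Over all genes, 13% were called lower in HEL and 11.6% higher.

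**Figure D3:**
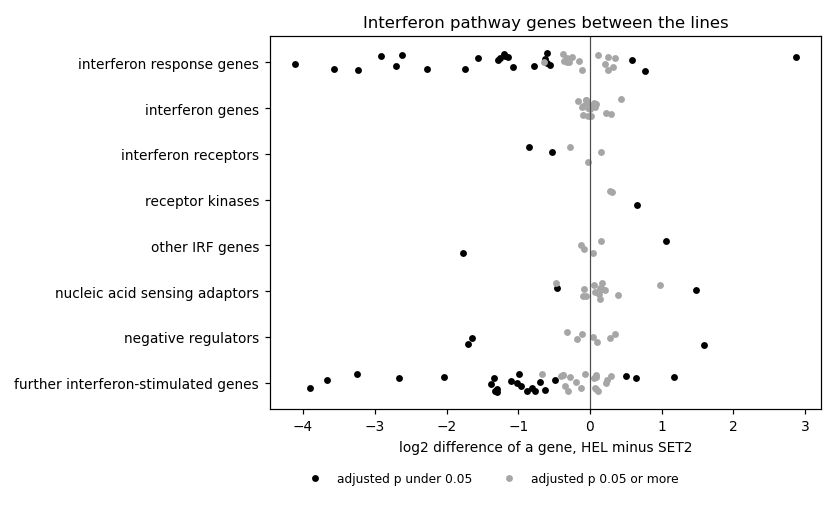
Log2 difference between HEL and SET2 (horizontal axis, HEL minus SET2) for the interferon response genes and 7 lists of pathway genes; each point is a gene, black where its adjusted p was under 0.05. Points of the 39 response genes and of the 42 further stimulated genes spread to the left, while the 20 interferon genes gather near 0.

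No member passed the test between the arrays labelled IGF1R shRNA and the controls. The fit called 0% of all genes, and the smallest adjusted p of a member was 0.571. A change confined to a single line widens the SE in this fit, which was 0.39 for IFI44L and 0.34 for IFI6. Not passing therefore does not show that a gene was unchanged. At an unadjusted p under 0.05 there were 5 of 39 members and 1656 of all 22320 genes. The members' values in the lines went different ways. Against the control of its own line, the shRNA-labelled array had 25 of 39 members higher in HEL and 8 in SET2. Of all 22320 genes, 11196 were higher in HEL and 10062 in SET2. The median member was at 0.11 in HEL and -0.18 in SET2, beside 0.0021 and -0.032 over all genes.

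On the HEL array labelled IGF1R shRNA, 8 members (20.5%) were higher than in the HEL control by 1.5-fold or more, against 5.75% of all genes, and 0 were lower by that much, against 5.49%. In SET2, 0 members were higher by 1.5-fold, against 2.17% of all genes, and 3 were lower, against 3.44%. There were 6 members higher in both lines (15.4%, against 22.5% of all genes) and 12 lower in both (30.8%, against 27%). A further 19 were higher in HEL and lower in SET2 (48.7%, against 27.5% of all genes), and 2 went the other way (5.13%, against 22.4%). With 1 array for each line and construct, a difference between the lines in this response could not be tested.

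The 8 members past 1.5-fold in HEL were IFI44L (a change of 1.46), IFI6 (1.40), IFI44 (0.92), SAMD9L (0.90), OAS1 (0.78), IFIT5 (0.76), PARP9 (0.73) and SAMD9 (0.70). Their changes in SET2 were -0.13, 0.015, -0.25, -0.23, -0.59, -0.35, -0.52 and -0.17 in that order, so that OAS1 and PARP9 were also the pair with opposite changes of over 0.5 in the lines. In HEL the higher value of each was shared by most of its probe sets. The 8 were picked by the mean of these same probe sets on the same arrays, so the probe set counts are no separate support. For IFI6 all 6 probe sets were higher on the shRNA-labelled HEL array, by 0.99 to 1.59, and for SAMD9 all 4 were. The counts were 15 of 16 for IFI44L, 13 of 14 for IFI44, 9 of 11 for SAMD9L, 14 of 17 for PARP9, 14 of 18 for OAS1 and 4 of 5 for IFIT5. The 3 members lower by 1.5-fold in SET2 were RSAD2 (-0.63), OAS3 (-0.61) and OAS1.

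**Figure D4:**
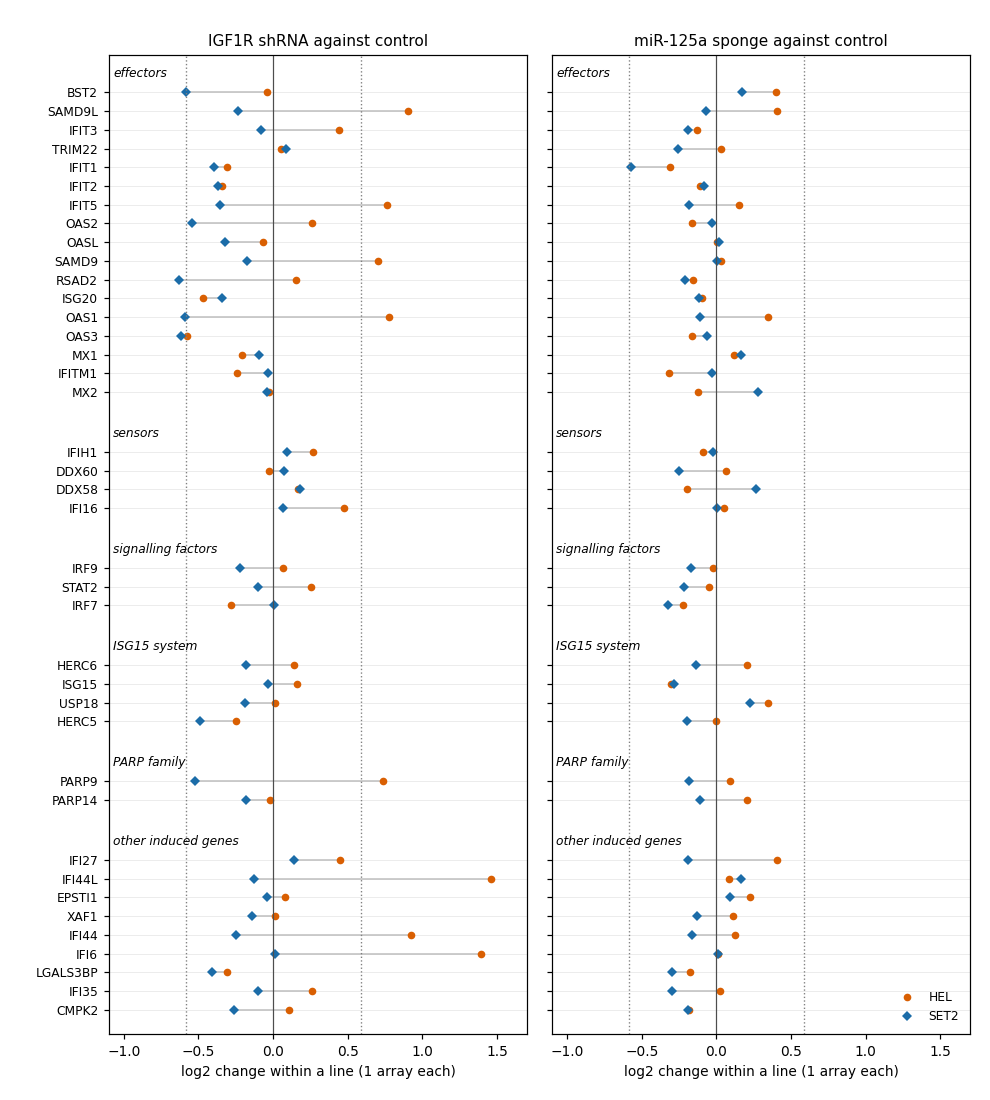
Log2 change of each interferon response gene within a line (horizontal axes), on the array labelled IGF1R shRNA (left) and on the miR-125a sponge array (right), each minus the control array of the same line; orange is HEL, blue is SET2, dotted lines mark 1.5-fold. On the left 8 orange points lie past the right dotted line and 3 blue points past the left one; on the right none does.

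**Figure D5:**
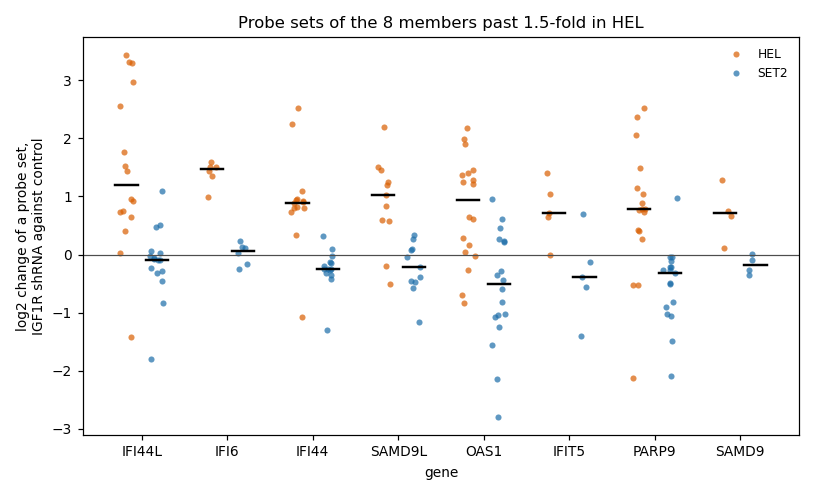
Log2 change of each probe set (vertical axis) between the array labelled IGF1R shRNA and the control of the same line, for the 8 genes past 1.5-fold in HEL; each point is a probe set, orange in HEL and blue in SET2, bars are medians. The HEL medians of the 8 genes lie above 0 and 7 of the 8 SET2 medians lie below it, IFI6 being the exception at 0.07. The genes were picked by the HEL mean of these probe sets, so the HEL medians are no separate support.

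Averaged over both lines, the members with the largest positive change on the shRNA-labelled arrays were IFI6 at 0.71 (SE 0.34, adjusted p = 0.693), IFI27 at 0.29 (SE 0.18, adjusted p = 0.742) and IFI16 at 0.27 (SE 0.16, adjusted p = 0.741). For IFI6 that average joined 1.40 in HEL and 0.015 in SET2. The largest negative averages were OAS3 at -0.59 (SE 0.14, adjusted p = 0.571), ISG20 at -0.41 (SE 0.14, adjusted p = 0.643) and HERC5 at -0.37 (SE 0.15, adjusted p = 0.663). OAS3 was the most even of these, at -0.57 in HEL and -0.61 in SET2. The gap between the lines was largest for IFI44L, IFI6 and OAS1, at 1.59, 1.38 and 1.37. Without the SET2 array labelled IGF1R shRNA, 729 genes were called and IFI44L (1.47, adjusted p = 0.0142) and IFI6 (1.40, adjusted p = 0.0153) were among them, values that then rest on the HEL array alone, whose spread is borrowed from the remaining arrays.

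The miR-125a sponge arrays lay closer to the controls. No member passed and 0% of all genes were called, with 1 of 39 members and 412 of all 22320 genes at an unadjusted p under 0.05. The median member was at 0.01 in HEL and -0.12 in SET2. No member reached 1.5-fold in either direction or line, against 1.23% of all genes higher and 1.19% lower in HEL, and 0.968% higher and 0.833% lower in SET2. There were 9 members higher in both lines (23.1%, against 21.1% of all genes) and 16 lower in both (41%, against 29.7%).

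The sponge averages were highest for USP18 at 0.29 (SE 0.15), BST2 at 0.28 (SE 0.17) and EPSTI1 at 0.16 (SE 0.14), and lowest for IFIT1 at -0.44 (SE 0.15), ISG15 at -0.30 (SE 0.15) and IRF7 at -0.27 (SE 0.16), all with an adjusted p of 1. IFIT1, the member past an unadjusted p of 0.05, changed by -0.31 in HEL and by -0.57 in SET2 and was dim on every array. IFI27, SAMD9L and DDX58 differed most between the lines, with changes of 0.41, 0.40 and -0.20 in HEL and -0.19, -0.07 and 0.26 in SET2. The sponge and shRNA comparisons share the control arrays.

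The sponge arrays were also set against those labelled IGF1R shRNA, where no member passed and 0% of all genes were called. There were 4 of 39 members and 1528 of all 22320 genes at an unadjusted p under 0.05. BST2 (0.59, SE 0.17), OAS3 (0.48, SE 0.14) and USP18 (0.37, SE 0.15) had the largest positive averages, each with an adjusted p of 0.725. IFI6 (-0.70, SE 0.34, adjusted p = 0.744), ISG15 (-0.36, SE 0.15, adjusted p = 0.725) and IFIT3 (-0.34, SE 0.18, adjusted p = 0.751) had the largest negative ones. The gap between the lines was widest for IFI44L, IFI6 and PARP9. In HEL their changes were -1.37, -1.39 and -0.64, and in SET2 0.29, -0.005 and 0.34. Without the SET2 array labelled IGF1R shRNA, 670 genes were called, among them IFI44L (-1.35, adjusted p = 0.0194) and IFI6 (-1.39, adjusted p = 0.0185), again from 1 shRNA-labelled array with a borrowed spread.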

How the data were processed

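Each of 6 cultures gave total RNA for 1 array (GeneChip Human Gene 2.0 ST). The authors deposited log2 intensities per probe set; the submitters' processing notes name Affymetrix Expression Console, and the values themselves gave the scale. Background correction, summarisation, normalisation and genome build are not given in the sources used here, and detection against background was not assessed because scanner files were not used here. Precision is limited by how few arrays there are.

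Of 352859 probe sets, 259224 had a single symbol and were averaged into 22320 genes. R 4.3.3 with limma 3.58.1 (lmFit, eBayes) fitted treatment and line together, with 2 residual and 4.78 prior degrees of freedom, two-sided, Benjamini-Hochberg over all genes, threshold 0.05. Mean estimates for HEL against SET2 and shRNA-labelled against control were checked on simulated data with known answers. Those data had independent noise and additive effects, as the model assumes, so the check does not bear on departures from it. The replicate block is the line, since HEL arrays share a line and SET2 arrays another. Deviations of arrays of a line from the treatment mean correlated at 0.75 to 0.88. With 2 arrays per treatment these deviations mirror each other between the lines, so the correlations only restate the line difference. Within a line, changes are differences of 2 arrays, with no test, described by a 1.5-fold limit. Promoter windows were searched with Python 3.11.15.

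The members and lists were chosen with earlier results of these data known. Every member is named. For each treatment comparison, the 3 largest averages of each sign shared by both lines and the 3 largest gaps between lines are given, and for the pathway lists the 2 largest called values of each sign. Members past 1.5-fold within a line, IFNAR1, IFNAR2 and the marker genes were named in addition, after their values were seen. Alternatives tried were the median or the brightest probe set of a gene, dim probe sets left out, several-symbol probe sets added, quantile normalisation, other model terms and each array left out. Leaving out both arrays labelled IGF1R shRNA was added after the data were seen.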

Additional observations from a re-analysis of the deposited data

Results flagged for a closer look

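Some responses of the interferon response genes pointed opposite ways in the lines. With 1 array for each line and construct, no difference between the lines was tested. Between the arrays labelled IGF1R shRNA and the controls, the median member changed by 0.11 in HEL and by -0.18 in SET2. In the same comparison OAS1, an enzyme activated by double-stranded RNA, changed by 0.78 in HEL and by -0.59 in SET2, and PARP9 by 0.73 in HEL and by -0.52 in SET2. Between the sponge arrays and the controls, the median member changed by 0.01 in HEL, close to 0, and by -0.12 in SET2. The HEL value was negative under 3 of 5 other ways of processing, at -0.03, -0.16 and -0.0081, and 30.8% of members were higher in HEL and lower in SET2, beside 27.1% of all genes. The shRNA-labelled HEL array was also the one that correlated least with its own control over all genes, at 0.976, and the part of this in the changes was not tested.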

How the results depend on the processing

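The count of genes called between HEL and SET2 was 5475, 2613 with the brightest probe set of a gene, and 2871 to 6330 when each array was left out. Members lower in HEL numbered 20 (14 to 24 with an array left out, 13 when a gene's probe sets were summarised by their median) and members higher 3 (2 to 3 with an array left out, 1 with the brightest). With an array left out, calls ranged from 0 to 729 genes and 0 to 2 members for the shRNA-labelled arrays, and from 0 to 670 genes and 0 to 2 members for sponge against shRNA-labelled. Without the replicate block, 0 genes were called in each of the 3 treatment comparisons. Values that changed sign were IGF1R (0.15 with the median, 0.042 without the HEL shRNA-labelled array), LGALS3BP (0.20 with the brightest), OAS2 (0.16 without dim probe sets), OAS1 (-0.49 to 0.19 with an array left out, 0.19 being without a control array), DDX60 (-0.012 without a sponge array), IFI27 on the shRNA-labelled arrays (-0.115, brightest), EPSTI1 on the sponge arrays (-0.105, brightest) and the gap between lines of DDX58 with the sponge (0.42, median); the causes were not tested.

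Within lines, members on the shRNA-labelled arrays past 1.5-fold numbered, lower in SET2, 5 with the median, 5 with the brightest, 6 without dim probe sets and 0 after quantile normalisation; lower in HEL, 7 with the brightest and 1 without dim probe sets; and higher in SET2, 2 with the brightest. The HEL median of the sponge was -0.03 with the median, -0.16 with the brightest and -0.0081 without dim probe sets, and its SET2 median was 0.01 with the brightest. Sponge members past 1.5-fold were 1 (median) and 3 (brightest) higher in HEL, and 2, 7 and 1 (median, brightest, dim left out) lower in HEL. In SET2 they were 1, 1 and 1 higher and 1, 2 and 1 lower. For 12 members the HEL mean was under the median of all genes, and how far dim values lie above background was not assessed.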

Other observations

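Among pathway genes outside the 39, chosen here after their values were seen, those highest on the HEL array labelled IGF1R shRNA against the HEL control were TLR3, a double-stranded RNA receptor, TNFSF10, the death ligand TRAIL, GBP1 and SOCS3. Their changes were 1.21, 1.15, 1.07 and 1.06 in HEL and -0.74, -0.98, -0.09 and -0.36 in SET2, from 1 array each and with no test. TNFSF10 was at 5.63 (labelled shRNA), 4.67 (sponge) and 4.47 (control) in HEL, against 6.36, 7.19 and 7.34 in SET2, and its difference between the lines was -2.04 (SE 0.38, adjusted p = 0.00885). Of the 42 further interferon-stimulated genes, 4 were higher and 2 lower by 1.5-fold on the HEL array labelled IGF1R shRNA, beside 5.75% and 5.49% of all genes. In SET2, 1 was higher and 3 were lower, beside 2.17% and 3.44%. The largest changes the other way on that HEL array were APOL6 (-1.24), a gene of the apolipoprotein L family, IKBKE (-1.05), a kinase of nucleic acid sensing, and UBE2L6 (-0.92), the E2 enzyme of ISG15, with -0.31, -0.34 and -0.44 in SET2. IFNAR1, a chain of the type I interferon receptor, changed by 0.70 in HEL and by -0.18 in SET2.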
